A study of Mus musculus and Homo sapiens with 10 samples.

Results

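The sites of UBF in HMLER cells were compared with the sites of RNA polymerase I (Pol I) in HMEC cells, from peak lists of chromatin immunoprecipitation followed by sequencing (ChIP-seq). The members were chosen as the whole of both lists, 32274 UBF peaks and 9294 Pol I peaks, together 41568 of the 208002 peaks in the 10 lists of the series. The study mapped UBF, Pol I and chromatin marks in mouse fibroblasts and set UBF binding in immortalized human mammary epithelial cells beside that in a tumorigenic line derived from them. HMEC are human mammary epithelial cells immortalized by TERT, the catalytic subunit of telomerase. HMLER is a line derived from HMEC that expresses the SV40 large-T antigen, TERT and the oncogenic allele HRASV12G. Both carry TERT, and both were grown in the same medium and harvested while growing exponentially. UBF was precipitated with a rabbit polyclonal antibody to UBF1/2, and Pol I with rabbit polyclonal antibodies to its largest subunit, POLR1A. With 1 sample behind each list, the spread between replicates is unknown and the lines could not be tested against each other. The 2 lists also come from different cell lines, so antibody and cell line cannot be told apart, and a shared position does not show both proteins in 1 cell. The lists hold no expression values, so the labelled cell types could not be checked against marker genes.

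UBF, the upstream binding factor, is a DNA-bending protein of the high-mobility-group box family that keeps active ribosomal RNA genes open and helps Pol I start there. Pol I is the enzyme that transcribes the long precursor of the large ribosomal RNAs, in the nucleolus. In human cells those genes lie in tandem arrays on the short arms of the acrocentric chromosomes, while the 5S ribosomal RNA genes, which Pol III transcribes, form a separate array on the long arm of chromosome 1.

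The lists differed in length and in the width of their peaks. UBF in HMLER had a median width of 982 bp (lowest 191, quartiles 683 and 1505, highest 12457) and covered 38.2 Mb. Pol I in HMEC had a median of 290 bp (lowest 111, quartiles 248 and 319, highest 45535) and covered 2.88 Mb. Of the Pol I peaks, 7976 (85.8%) were 200 to 400 bp wide, against 1431 (4.43%) of the UBF peaks. A typical Pol I peak therefore fits inside a typical UBF peak and cannot fill it. The UBF list of HMEC itself, used below for comparison, was made of 9478 peaks, 469 bp wide at the median, that covered 5.24 Mb. No list gives a height, a score or a read count, so the depth is unknown, and width is the only measure by which peaks could be ranked. The intervals given with shares are 95% binomial (exact, Clopper-Pearson) with peaks as the counted unit, so they hold counting error only.

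Most Pol I sites of HMEC lay outside UBF sites of HMLER. Of 9294 Pol I peaks, 1154 (12.4%, interval 11.8 to 13.1) shared at least 1 bp with a UBF peak, and 1122 of 32274 UBF peaks (3.48%, 3.28 to 3.68) shared at least 1 bp with a Pol I peak. UBF peaks covered 1.26% of the span of chromosomes 1 to 22 and X, taken up to the last human peak of each chromosome. The overlapping Pol I peaks mostly lay whole within UBF: 847 of the 1154 (73.4%, 70.7 to 75.9) lay wholly inside a single UBF peak, and 305 (26.4%) crossed one of its edges. The pairs were nearly all single. Of the 1122 UBF peaks, 1084 held 1 Pol I peak, 36 held 2 and 2 held 3, and 8 Pol I peaks touched more than 1 UBF peak. In all, 312 kb lay in both lists, which was 10.8% of the Pol I bases and 0.815% of the UBF bases.

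UBF was most frequent at the Pol I centre itself and fell away within a few kilobases. The centre of the Pol I peak lay in an HMLER UBF peak at 1002 sites (10.8%, 10.2 to 11.4). At a distance of 1 kb the share was 6.84% as the mean of both sides, at 2 kb 4.78% and at 5 kb 2.89%. Beyond that it was nearly level, with 3.24% at 10 kb, 2.72% at 50 kb and 2.57% at 100 kb. The centre thus stood 4.19 times above the level at 100 kb. Counted by centres, there were 93.4 UBF centres per Mb searched within 250 bp of a Pol I centre, 37.6 between 1 and 2 kb, 24.9 between 5 and 10 kb and 21.5 between 50 and 100 kb. This outermost density was still above the 10.6 UBF peaks per Mb of the whole span, so Pol I peaks also lay in stretches of the genome with more UBF peaks.

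**Figure D1:**
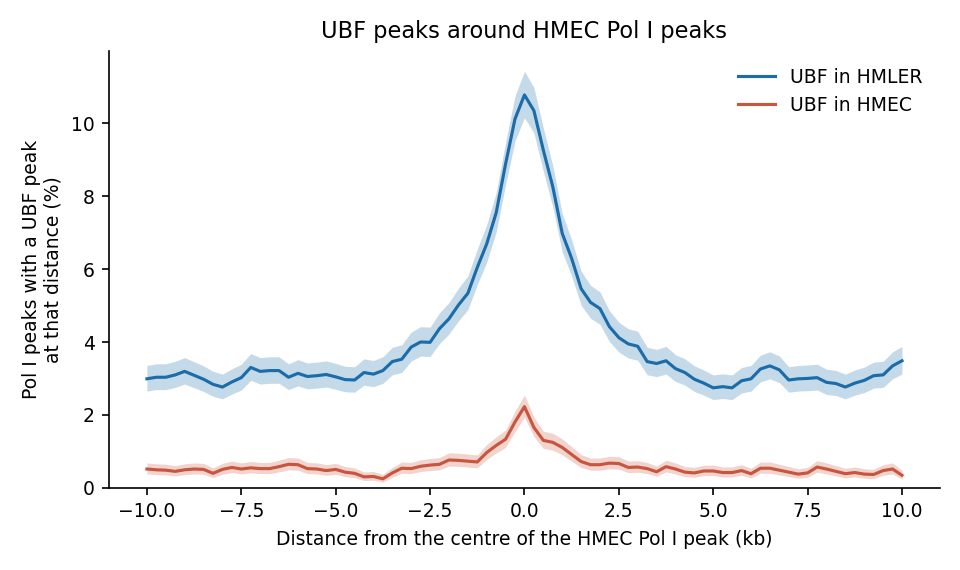
The share of the 9294 HMEC Pol I peaks (vertical axis, %) that have a UBF peak at a given distance from the Pol I centre (horizontal axis, kb), for UBF in HMLER and UBF in HMEC, with 95% binomial intervals as bands. Both curves are highest at the centre, at 10.8% for HMLER and 2.23% for HMEC, and are nearly level beyond 5 kb.

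The nearest UBF centre was far from most Pol I centres. The median distance was 18076 bp (order-statistic 95% interval 17129 to 18990), with quartiles at 3734 and 63326 bp. A UBF centre lay within 100 bp of 183 Pol I centres (1.97%), within 500 bp of 770 (8.28%), within 1000 bp of 1266 (13.6%) and within 10 kb of 3565 (38.4%). At the other extreme, 1687 Pol I peaks (18.2%) had no UBF centre within 100 kb, 3 of them on contigs without a UBF peak. For the Pol I peaks outside UBF the median distance was 24762 bp (quartiles 7920 and 77391). Within 10 kb of its centre, a Pol I peak in UBF had a median of 2 UBF centres (mean 1.95, highest 8), its own included, whereas 5729 of the 8140 Pol I peaks outside UBF (70.4%) had none.

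Inside the UBF peak, Pol I centres were spread over almost the whole width. With the UBF peak cut into 3 equal parts, 376 of 1002 Pol I centres (37.5%, 34.5 to 40.6) lay in the middle part, 333 in the part with the lower coordinates and 293 in the part with the higher. In 10 equal parts, the end parts held the fewest, 72 and 56 centres (7.19% and 5.59%), and the inner 8 held 97 to 124 each. The middle part took 43.0% (36.5 to 49.7) of the 228 centres in UBF peaks under 1000 bp, 37.2% of the 479 in peaks of 1000 to under 2000 bp, and 33.9% (28.5 to 39.6) of the 295 in peaks of 2000 bp or more. In these wide peaks the Pol I centre lay a median of 667 bp from the UBF centre, and in those under 1000 bp a median of 138 bp. The files give no strand, so lower and higher coordinates say nothing of the direction of transcription.

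**Figure D2:**
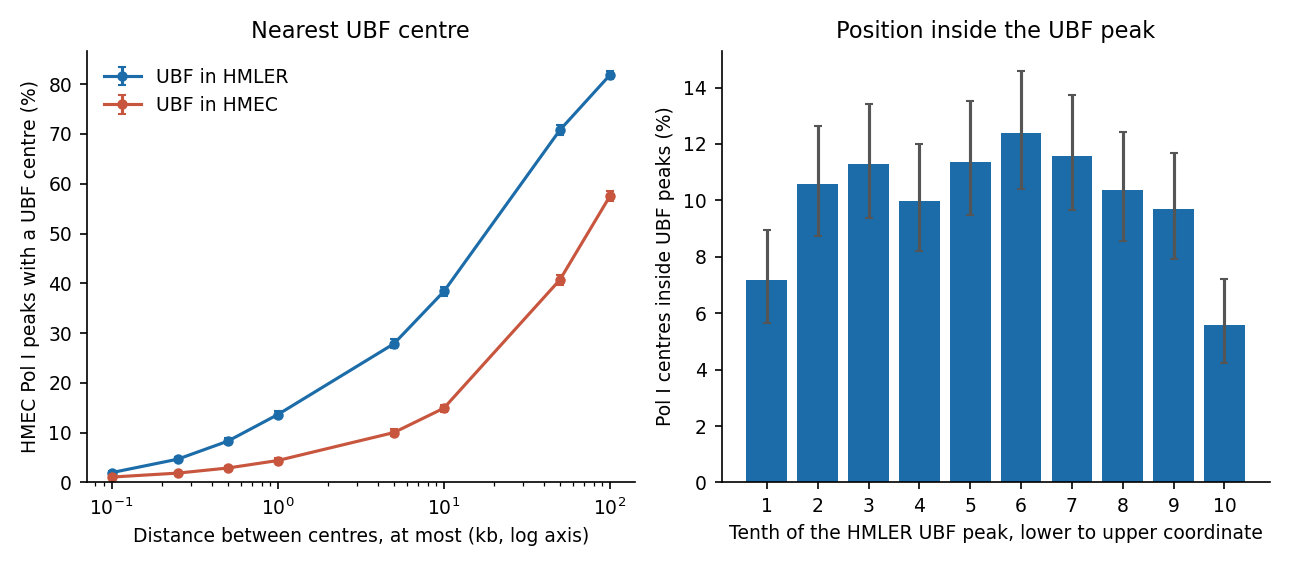
Left, the share of HMEC Pol I peaks with a UBF centre within a given distance (kb, log axis), for UBF in HMLER and in HMEC; right, the 1002 Pol I centres inside HMLER UBF peaks by 10 equal parts of the UBF peak. Bars and lines carry 95% binomial intervals; the end parts of the UBF peak hold 7.19% and 5.59% of the centres.

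Wider UBF peaks held Pol I more often, while the count per Mb that they covered showed no order by width. In 4 width groups of nearly equal size, the share of UBF peaks with Pol I was 1.43% (1.18 to 1.71) at 191 to 683 bp, 2.22% at 683 to 982 bp, 3.82% at 982 to 1505 bp and 6.45% (5.92 to 7.00) at 1505 to 12457 bp, around the 3.48% of the whole list. Per Mb of UBF peaks the same counts were 28.6, 26.8, 31.4 and 29.4 UBF peaks with Pol I, with no order by width. UBF peaks with Pol I had a median width of 1431 bp (quartiles 959 and 2054), and those without had 970 bp (quartiles 677 and 1485). Among the Pol I peaks, the share in UBF was 9.85% (8.67 to 11.1) in the narrowest of 4 width groups (111 to 248 bp) and 15.1% (13.6 to 16.6) in the widest (319 to 45535 bp), around the 12.4% of the whole list. Their widths hardly differed, with a median of 300 bp in UBF and 288 bp outside it.

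**Figure D3:**
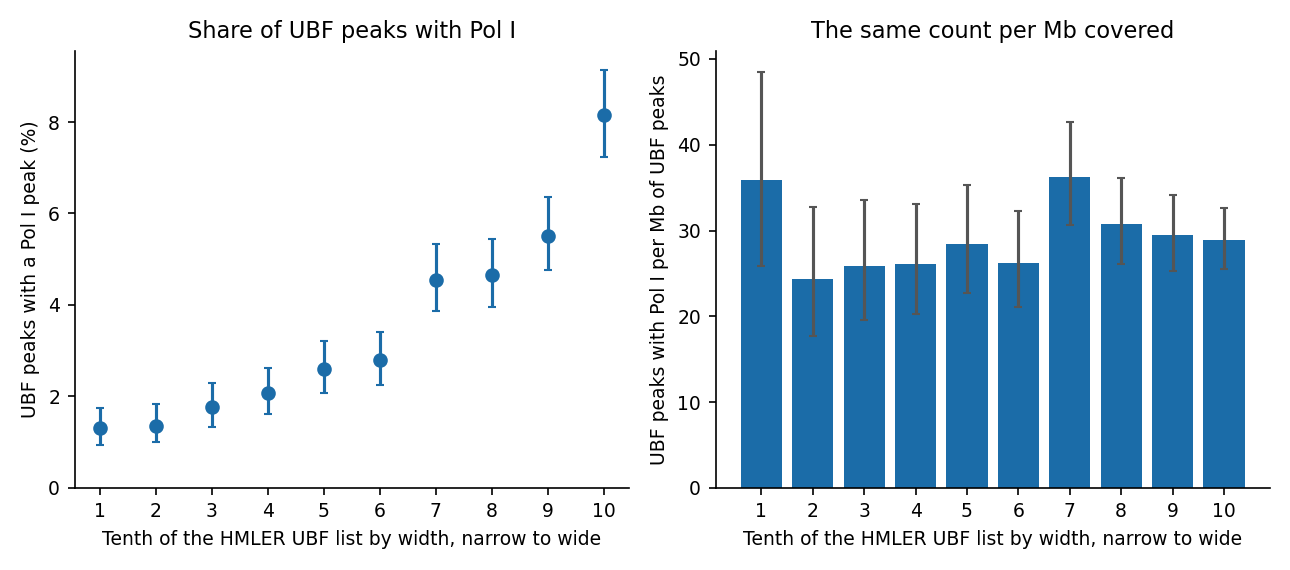
Left, the share of HMLER UBF peaks with a Pol I peak (%) in 10 width groups from narrow to wide; right, the number of UBF peaks with Pol I per Mb covered by the UBF peaks of each group. Error bars show 95% intervals (binomial on the left, Poisson on the right). The share climbs from 1.30% to 8.15%, and the count per Mb lies between 24.4 and 36.2 with no order by width.

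The UBF list of HMEC met fewer of the Pol I peaks of its own cell line. It overlapped 266 of the 9294 Pol I peaks (2.86%, 2.53 to 3.22), so that the HMLER list met 4.34 times as many. It also covered less of the genome, since the HMLER list covered 7.29 times as many bases. The shares were 16.6 times the part of the span that HMEC UBF covered (0.173%) and 9.87 times the part that HMLER UBF covered. These ratios set an overlap of 1 bp against covered bases, which by construction raises them more for narrower UBF peaks, as in HMEC. Counted by the Pol I centre alone, the shares were 2.23% in HMEC UBF and 10.8% in HMLER UBF. When only the 9478 widest HMLER peaks were kept, they met 612 Pol I peaks (6.58%). With those peaks also set to 500 bp around their centre, they met 238 (2.56%). The HMEC list, with its peaks set to 500 bp, met 241 (2.59%). These reduced settings were chosen after seeing the data. Cutting the widest peaks to 500 bp removes overlap by construction. In HMLER UBF peaks of 2000 bp or more, Pol I centres lay a median of 667 bp from the UBF centre. With all peaks of the full lists at 500 bp, the shares were 8.24% for HMLER UBF and 2.89% for HMEC UBF. Around the Pol I centre the UBF density within 250 bp was 5.57 times that at 50 to 100 kb for HMEC and 4.35 times for HMLER. With 1 list for each line, the difference between them was not tested.

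Pol I sites that had UBF in their own line mostly had it in HMLER too. Of the 266 Pol I peaks with HMEC UBF, 194 (72.9%, 67.2 to 78.2) overlapped HMLER UBF, against 960 of the 9028 without (10.6%, 10.0 to 11.3), around the 12.4% of the whole list. This left 194 Pol I peaks with UBF in both lines, 960 with HMLER UBF alone, 72 with HMEC UBF alone and 8068 (86.8%) with neither. The 72 with HMEC UBF alone lay a median of 10101 bp from the nearest HMLER UBF centre, and the 8068 with neither lay a median of 25020 bp away. Seen from UBF, 327 of the 4728 HMLER peaks shared with HMEC held Pol I (6.92%, 6.21 to 7.68), against 795 of the 27546 absent from HMEC (2.89%, 2.69 to 3.09). In each of the 4 width groups the intervals of these shares did not overlap: 5.36% and 1.34% in the narrowest group, 5.41% and 2.05%, 5.33% and 3.56%, and 7.83% and 5.63% in the widest. These intervals are not a test, and the HMEC UBF and Pol I lists share their cell line.

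Across chromosomes, UBF and Pol I peaks were dense in the same places. UBF density in HMLER ran from 4.27 peaks per Mb on chromosome X and 4.45 on chromosome 4 to 27.6 on chromosome 17 and 31.4 on chromosome 19. Pol I density in HMEC ran from 1.39 on chromosome 21 and 1.72 on chromosome 13 to 5.19 on chromosome 19 and 5.64 on chromosome 17. The order at the low end rests on the length used, since the span counts stretches without any peak, such as the start of chromosomes 13 and 21. Per 1-Mb bin with a peak in any human list, Pol I was lowest on X at 2.12, with 2.22 on chromosome 13 and 2.23 on 21, and UBF had 4.77 on chromosome 4 and 4.80 on X. Over the 23 chromosomes Spearman's rho between the densities was 0.92 (0.93 per occupied bin), given as a description, since all chromosomes come from the same libraries. The share of Pol I peaks in UBF followed the UBF density (rho 0.80): it was 2.67% (0.874 to 6.13) on chromosome 18, 4.55% on chromosome 13 and 4.79% on X, and 20.5% (16.9 to 24.5) on chromosome 17 and 20.8% (16.4 to 25.8) on chromosome 19. The intervals of most chromosomes overlap their neighbours', so the order in between is not resolved. Set against the part of the chromosome that UBF covers, the share was lowest on chromosome 18 at 4.50 times, stood at 5.41 times on chromosome 19, 5.64 on 20 and 5.71 on 17, and was 16.7 times on chromosome 21, from 9 of 67 Pol I peaks. With occupied bins as the length, chromosome 21 had 10.4 times, below chromosomes 2 (12.7), 4 (12.1) and 6 (11.4), and chromosome 18 was still lowest at 4.21. Over the 23 chromosomes this ratio tended to be lower where UBF covered more (rho -0.51). That coverage is also the divisor of the ratio, which favours a negative rho by construction. Chromosome 18, with little UBF, went against that order.

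**Figure D4:**
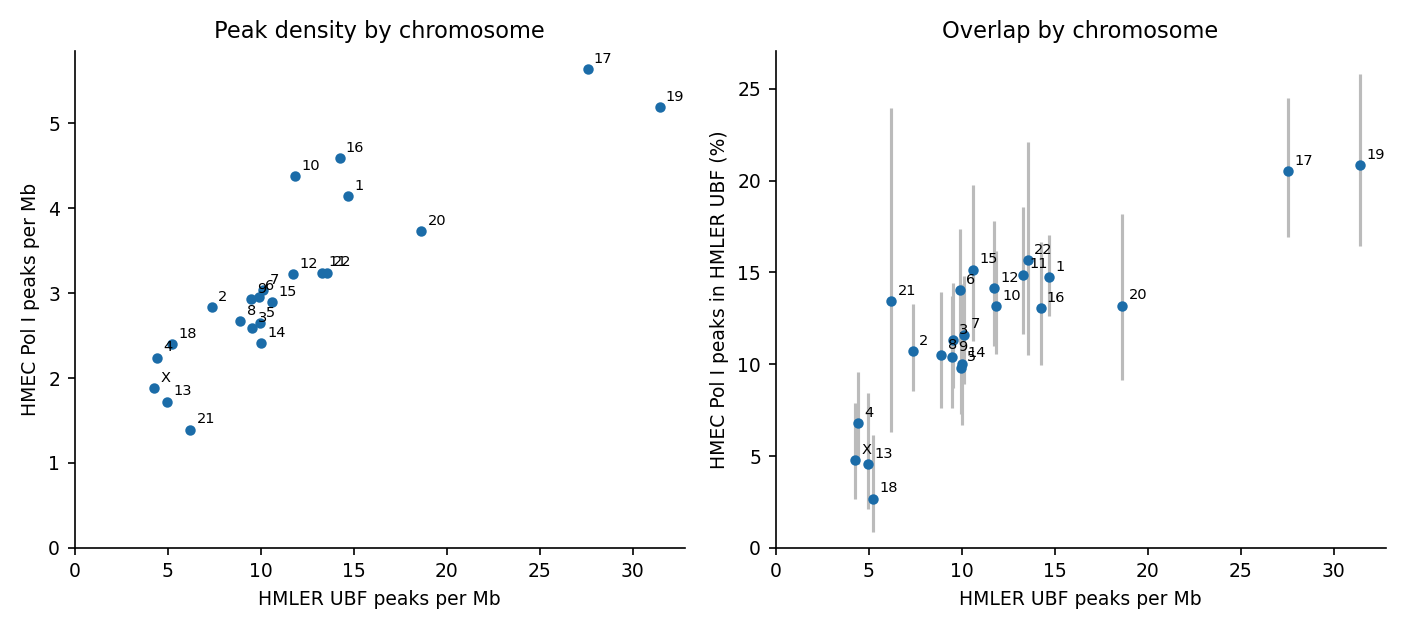
Left, HMEC Pol I peaks per Mb against HMLER UBF peaks per Mb for chromosomes 1 to 22 and X; right, the share of Pol I peaks in HMLER UBF (%, with 95% binomial intervals) against the same UBF density. Chromosomes 17 and 19 stand apart at the top right, at 27.6 and 31.4 UBF peaks per Mb, and X, 4 and 13 lie at the lower left of both plots.

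Chromosome X had few peaks in all 3 human lists, to different degrees. Its density relative to chromosomes 1 to 22 was 0.603 for Pol I in HMEC, 0.389 for UBF in HMLER and 0.172 for UBF in HMEC. Of its 292 Pol I peaks, 14 lay in HMLER UBF (4.79%, 2.65 to 7.91), against 12.4% of the whole list. HMLER UBF covered 0.463% of X, against 1.26% of the whole span. The share was 10.4 times the covered part on X, near the 9.87 times of the whole span. None of the 292 lay in HMEC UBF, against 2.86% of the whole Pol I list. HMEC UBF had only 87 peaks on X, or 0.561 per Mb against 3.26 on chromosomes 1 to 22. Fewer overlaps go with that density, and whether 0 is fewer still was not tested. A count of 0 allows a share of up to 1.03%, by the limit of 3 counts.

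In bins of 1 Mb the lists rose and fell together, although their fullest bins differed. Of 2757 bins with a peak in any human list, 2240 held both UBF of HMLER and Pol I, 284 held UBF alone and 216 held Pol I alone. The rank correlation of the counts was 0.62 over these bins, which share libraries and the mappable part of each bin. Within single chromosomes it lay between 0.27 (chromosome X) and 0.84 (chromosome 22), with a median of 0.63. Its sign depended on the bins counted: with 100-kb bins it was -0.054 over bins that hold a peak and 0.32 over all bins of the span. Leaving out the bins that are empty in every list favours a lower correlation by construction. With those bins included, the value for 1-Mb bins was 0.69. Pol I peaks per bin went from a mean of 1.50 in the 496 bins with 1 or 2 UBF peaks to 8.96 in the 140 bins with 41 to 110 UBF peaks. Over the same groups the share of Pol I peaks in UBF went from 4.17% (2.85 to 5.86) to 25.7% (23.3 to 28.2), while UBF peaks covered 0.148% and 6.86% of those bins. Bins without UBF held 374 Pol I peaks, a mean of 0.714 over the 524 such bins of the whole span, empty ones included.

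The bins fullest in UBF and those fullest in Pol I were different ones, with none in common among the top 10 of each. The UBF bin with most peaks, on chromosome 19 from 1000001 to 2000000 (hg19), held 110 UBF peaks and 7 Pol I peaks, of which 3 lay in UBF. Next came chromosome 17 from 79000001, with 85 UBF and 13 Pol I peaks, and chromosome 11 from 65000001, with 80 and 11. The fullest Pol I bins lay on chromosome 1: the bin from 145000001 held 41 Pol I and 35 UBF peaks, that from 148000001 held 37 and 9, and that from 144000001 held 33 and 15. Of their Pol I peaks, 5, 4 and 1 lay in UBF. A bin on chromosome 5 from 69000001 had 24 Pol I peaks and only 2 UBF peaks, with no overlap. Among the 10 fullest Pol I bins 32 of 264 Pol I peaks lay in UBF (12.1%, 8.44 to 16.7), close to the 12.4% of the whole list, and among the 10 fullest UBF bins 26 of 99 (26.3%, 17.9 to 36.1).

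Bins with most overlapping Pol I peaks formed another set. The first megabase of chromosome 1 held 9 of 25 Pol I peaks in UBF. Chromosome 17 from 7000001 to 8000000 held 9 of 12, beside 68 UBF peaks, and the next bin on that chromosome held 7 of 10, beside 38. A further bin of chromosome 1, from 228000001, held 7 of 25. The other 6 of these 10 bins held 6 each, among them bins of chromosome 6 from 3000001 (6 of 12), 27000001 (6 of 13) and 30000001 (6 of 13). Of the 10 bins with most overlap, 2 were also among the 10 fullest in Pol I and none among the 10 fullest in UBF. These bins were ranked by the overlap itself, so their shares are a description.

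Among the 10 widest Pol I peaks, 2 touched an HMLER UBF peak, where the whole list had 12.4%. Among the 10 widest UBF peaks, 3 held Pol I, where the whole list had 3.48% and the widest of 10 width groups 8.15%. Of the same 10 UBF peaks, 9 overlapped UBF of HMEC, where the whole list had 4728 of 32274. Such overlap was more common among wide peaks. It held for 168 of 8069 HMLER peaks at 191 to 683 bp, and for 2990 of 8068 at 1505 to 12457 bp. Whether the 9 of 10 exceeds what goes with width was not tested. The widest UBF peak, 12457 bp of chromosome 7 between 5457780 and 5470237, had its nearest Pol I centre 141726 bp away. For the next, 9597 bp of chromosome 6 between 10411108 and 10420705, that distance was 8173 bp. The widest UBF peak with Pol I, 7767 bp of chromosome 17 between 8023072 and 8030839, held 1 Pol I peak. A UBF peak of 7096 bp on chromosome 5 (92914601 to 92921697) and a UBF peak of 6786 bp on chromosome 6 (32935525 to 32942311) held 2 each. On chromosome 5 the Pol I peaks ran from 92917309 to 92917861 and from 92918790 to 92919104, both well inside the UBF peak. The first of them and this UBF peak, with width ranks 166 and 9, ranked best among overlapping pairs by the worse of their 2 ranks. Of the 10 pairs that rank best, all had the Pol I peak wholly inside UBF, against 73.4% of all overlapping Pol I peaks. The ranking picked wide UBF peaks (3231 bp or more), in which a narrow Pol I peak is likely to lie whole. UBF of HMEC met 4 of these 10 Pol I peaks, against 16.8% (14.7 to 19.1) of all Pol I peaks in HMLER UBF. The 10 pairs were picked by width, so the 2 are not like for like. HMEC UBF met 6.89% of the Pol I peaks in the widest of 10 width groups, against 2.86% of the whole list.

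Pol I peaks of 1000 bp or more were few, and most of them lay near others of that width. There were 63, and 9 of them (14.3%, 6.75 to 25.4) touched HMLER UBF, a share like that of the narrower Pol I peaks (12.4%, 11.7 to 13.1). By construction a wider peak is more likely to share 1 bp with UBF, so the 2 shares are not like for like. Joined where they lay less than 100 kb apart, the 63 peaks fell into 24 places, and 7 places with 2 or more held 46 of the 63. The interval of the 14.3% counts the peaks of 1 place as separate. On chromosome X, from 114959663 to 115004472, 13 wide Pol I peaks (1093 to 5666 bp) stood beside 1 UBF peak of HMLER, from 114969588 to 114970122, which lay inside a Pol I peak. On chromosome 2, from 92296044 to 92326137, 9 wide peaks had no UBF of either line, and on chromosome 16, from 46385805 to 46413701, neither had the 4 wide peaks. A place on chromosome 10, from 42384224 to 42397037, also held 4, without UBF. These places were singled out after their values were seen.

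A row of peaks on chromosome 1 held Pol I of HMEC together with UBF of HMLER. From 228745592 to 228782634 there were 14 Pol I peaks (751 to 6417 bp), and the distance from one start to the next had a median of 2185 bp (1508 to 7743), with 7 of 13 distances between 2000 and 2500 bp. HMLER had 3 UBF peaks there, from 228762233 to 228762614, from 228770917 to 228771687 and from 228782312 to 228784552, each touching the edge of a Pol I peak, and HMEC had none. The Pol I peaks covered 27.8 kb and the UBF peaks 3.39 kb. The files name no gene, and no hg19 annotation was used, so whether the row lies on the 5S ribosomal RNA array was not tested.

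**Figure D5:**
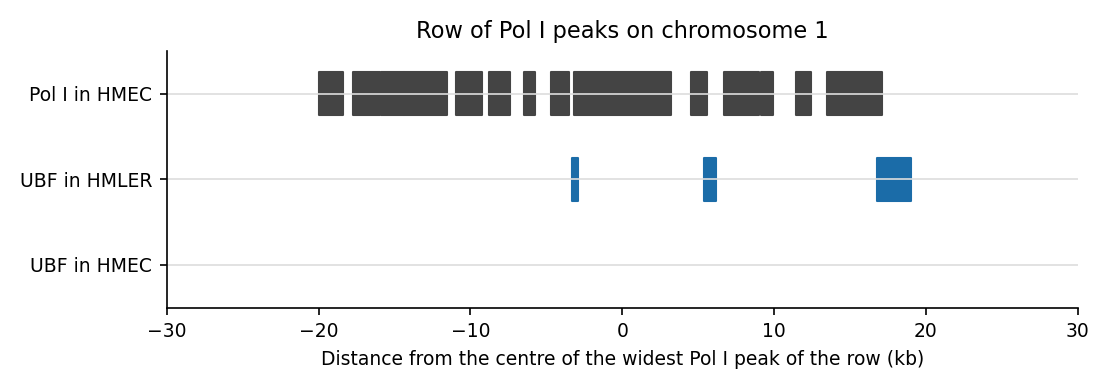
Peaks of the 3 human lists around a row of Pol I peaks on chromosome 1, by distance (kb) from the centre of its widest Pol I peak, each bar drawn to its width. The row holds 14 Pol I peaks of HMEC, 3 UBF peaks of HMLER and none of HMEC.

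Other wide Pol I peaks shared most of a UBF peak of HMLER; these too were picked with their values in view. On chromosome 21 a Pol I peak from 9825421 to 9827815 (2394 bp) shared 2370 bp with a UBF peak from 9825446 to 9827917 (2471 bp), the most bases shared among the 10 widest Pol I peaks in UBF. On chromosome 1 a Pol I peak from 161426732 to 161429005 held a UBF peak of 890 bp whole. On chromosome 9 the peaks from 70645424 and from 70645763 shared 955 bp. At the start of chromosome 5, those from 9991 and from 11173 shared 642 bp, with UBF of HMEC there as well. Near the start of chromosome 1, those from 564256 and from 564453 shared 1424 bp. Close by, the 2 UBF peaks that held most Pol I peaks, 3 each, ran from 567149 to 568652 and from 568672 to 570318. They shared 1 of these, a Pol I peak from 568457 to 568930 that spans the gap between them.

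Outside chromosomes 1 to 22 and X there were 19 Pol I peaks and 12 UBF peaks. The lists write contig names in different ways, and after matching by the number of the contig 2 Pol I peaks overlapped UBF, both on GL000192, where there were 7 Pol I and 4 UBF peaks. The widest Pol I peak, 45535 bp of contig GL000220 from 101469 to 147004, had no UBF peak of either line. How each list was filtered, by contig or by threshold, is unknown. A place without a UBF peak may therefore still bind UBF, with its peaks removed by a filter or left below the authors' threshold.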

How the data were processed

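Each deposited list has no header line and 3 columns, the chromosome, start and end of peaks the authors called, with no score or read count. Per the submitters' processing notes, reads went through CASAVA 1.8.2, BWA and Picard, on hg19 for human (mm9 is named too). For the peak caller, its threshold and any pooling, nothing is given in the sources used here. The 3 human lists were read as hg19, with coordinates as in the files, and contig names were matched by number. The 7 mouse lists were not used beyond their peak counts.

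Overlap meant at least 1 bp, with ends included. Width is end minus start, and the centre is the midpoint. Chromosome spans end at the last human peak. Bins of 1 Mb were filled by centre. Python 3.11.15, numpy 2.4.6, scipy 1.17.1 and matplotlib 3.10.9 were used, and the code was tested on simulated data. Peaks were named by width: the 10 widest of each list and the 5 widest without the other protein. The 10 overlapping pairs best by the worse of their 2 width ranks were named too. So were the 5 UBF peaks with most Pol I, and the 10 fullest bins. Further places are marked as chosen after their values were seen. The lists and measures were chosen with earlier results of these data known. No hg19 sequence or annotation was used, so genes are not named and the gene lists planned for it were not counted.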

Additional observations from a re-analysis of the deposited data

How the results depend on the processing

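Of the alternatives tried, 48 values stayed within the 95% interval of the reported value (for correlations, equal to it at 2 decimals), 47 moved beyond that and 1 changed sign; the causes were not tested unless the construction shows them. The share of Pol I peaks in HMLER UBF was 10.8% with at least 50% of the Pol I peak covered, 10.8% with 50% of the narrower peak covered and 10.8% with the wider 50% of each list. It was 6.54% with as many UBF peaks as Pol I peaks and 8.24% with all peaks at 500 bp. Under those settings the share of UBF peaks with Pol I was 0.192%, 3.02%, 3.06%, 6.24% and 2.34%, and it was 3.83% with peaks closer than 1000 bp merged. The first of these is low by construction, since few Pol I peaks can cover 50% of a UBF peak. For HMEC UBF the first 3 settings gave 2.22%, 2.26% and 2.45%. Reducing HMLER UBF to the length of the HMEC list, an alternative chosen after seeing the data, gave 6.58%, and 2.56% at 500 bp.

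The median distance to UBF was 35798 bp with the wider 50% of each list and 67588 bp with as many UBF peaks as Pol I peaks, and the share within 1000 bp was 10.03% and 5.49%. Merging gave 12.4%, and limits of 500 and 5000 bp gave 8.28% and 27.8%. The middle part of UBF held 43.9% of Pol I peaks wholly inside it. The rank correlation over bins was -0.054 in 100-kb bins, 0.77 in 5-Mb bins, 0.60 in bins with both lists, 0.59 as Pearson on log2(count + 1), 0.44 with the wider 50%, 0.56 with equal numbers and 0.61 without chromosome 1. With empty bins included, also chosen after seeing the data, it was 0.69 for 1-Mb and 0.32 for 100-kb bins.

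At 500 bp the narrowest and widest Pol I groups had 6.63% and 10.1% in UBF. The narrowest and widest UBF groups then had 1.55% and 2.96% with Pol I. With 50% of the peak covered, the widest Pol I group had 12.8%, and the narrowest and widest UBF groups had 0.545% and 0.037%; the widest of 10 UBF groups had 8.15%. Merging lowered the UBF density to 27.0 per Mb on chromosome 19, 23.9 on 17 and 4.15 on 4. With occupied bins as the length, it was 4.77 on chromosome 4 and 4.80 on X, and Pol I was 2.12 on X, 2.22 on 13 and 2.23 on 21. The overlap ratio to occupied bins and the mean over all bins without UBF were also added after seeing the data. No paired analysis was possible because each antibody and line has 1 list. Depth is unknown, so weak sites cannot be judged.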
